A study of Homo sapiens with 24 samples.

Results

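The zinc finger genes described here lie in the cluster at band p12 of human chromosome 19. They were taken by symbol from a list of 34 genes, of which 32 had a probe set on the array, out of 22395 genes in all. ZNF66 and ZNF730 had no probe set named for them. The probe set with the highest mean stood for a gene, and only ZNF253 had more than 1. The list was chosen by measured values: members had already been seen to differ between the S51A line and the parental line in these arrays. Differences of the lines from the parental line are therefore given as descriptions. Counts of limma calls on them stand beside the share of all genes called, and nothing is read from them. Treatment changes, and whether line differences depended on treatment, did not enter the choice and were tested.

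The arrays came from HAP1, an established near-haploid line derived from the chronic myelogenous leukemia line KBM-7, on which an Affymetrix array measured total RNA. PAR is the parental line. S51A is named for a change in eIF2-alpha, encoded by EIF2S1, that replaces the serine phosphorylated under stress. HRI, GCN2, PKR and PERK are lines named for loss of 1 of the kinases that phosphorylate it. All lines were bought from a supplier, and the labels do not say how many clones stand behind each. Each line was left untreated, was exposed for 2 h to 200 µM lomustine, a DNA-alkylating drug, or received what the titles call SA100. The agent field of the SA100 arrays also says lomustine, whereas the treatment protocol lists NaAsO2 (arsenite, 100 µM, 2 h) as the other agent. Titles decided the grouping. PAR, S51A and HRI had 5 arrays each, with repetitions A and B without drug and with lomustine and 1 array with SA100. GCN2, PKR and PERK had 3 arrays each, 1 per treatment. Nothing says that repetitions were separate cultures, so p-values measure the spread between arrays, which may be technical.

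Most genes of the cluster encode KRAB zinc finger proteins. Arrays of zinc fingers in these proteins bind DNA, often within transposable elements, and the KRAB domain recruits TRIM28 (KAP1), which brings the histone methyltransferase SETDB1 and HP1 proteins to silence chromatin. The family grew by repeated gene duplication, so neighbours in the cluster are close copies in sequence. ZNF91 and ZNF93 are known for repressing primate retrotransposons, and ZNF43, ZNF85, ZNF90, ZNF208 and ZNF257 are relatives encoded beside them.

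The likeness of the copies is visible upstream of their transcription starts. RefSeq (GRCh38.p14) gave 250 bases before the start for 24 of the 32 members. Of these 24, ZNF254 and ZNF431 had the fitted S51A differences closest to 0 over all arrays. Without the S51A lomustine B array described below they were 0.26 and 0.33. Shown are the 4 members with an entry that stood furthest above PAR in S51A (ZNF257, ZNF208, ZNF93 and ZNF43). Also shown are the neighbours ZNF714 and ZNF431, which had the most alike sequences, and ZNF254. Each is printed 5′ to 3′ on the gene's strand. Capitals mark the octamer CCAATCAG or, on the other strand, CTGATTGG, a CCAAT box with its flanking bases that was picked after looking at these sequences.
ZNF257 chr19:22052234-22052483 (+ strand): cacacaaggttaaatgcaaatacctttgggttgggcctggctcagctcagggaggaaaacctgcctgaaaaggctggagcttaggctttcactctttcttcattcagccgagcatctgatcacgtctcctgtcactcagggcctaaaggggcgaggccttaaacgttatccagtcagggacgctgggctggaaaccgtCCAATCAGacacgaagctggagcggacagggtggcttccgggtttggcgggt
ZNF208 chr19:22010944-22011193 (- strand): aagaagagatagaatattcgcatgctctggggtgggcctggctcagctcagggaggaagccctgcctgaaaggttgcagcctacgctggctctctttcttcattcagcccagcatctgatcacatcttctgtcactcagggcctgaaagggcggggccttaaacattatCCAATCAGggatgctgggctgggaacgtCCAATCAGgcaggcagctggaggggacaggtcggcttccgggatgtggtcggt
ZNF93 chr19:19900696-19900945 (+ strand): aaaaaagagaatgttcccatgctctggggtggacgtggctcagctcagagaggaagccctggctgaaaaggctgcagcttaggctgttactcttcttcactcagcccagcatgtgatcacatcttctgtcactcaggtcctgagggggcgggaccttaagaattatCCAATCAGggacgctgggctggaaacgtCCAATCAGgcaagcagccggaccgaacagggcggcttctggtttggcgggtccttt
ZNF43 chr19:21836183-21836432 (- strand): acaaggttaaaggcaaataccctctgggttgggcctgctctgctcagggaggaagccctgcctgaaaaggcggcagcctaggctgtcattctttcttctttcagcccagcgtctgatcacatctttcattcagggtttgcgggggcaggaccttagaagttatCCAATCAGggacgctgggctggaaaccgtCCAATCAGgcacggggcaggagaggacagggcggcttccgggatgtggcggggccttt
ZNF714 chr19:21081953-21082202 (+ strand): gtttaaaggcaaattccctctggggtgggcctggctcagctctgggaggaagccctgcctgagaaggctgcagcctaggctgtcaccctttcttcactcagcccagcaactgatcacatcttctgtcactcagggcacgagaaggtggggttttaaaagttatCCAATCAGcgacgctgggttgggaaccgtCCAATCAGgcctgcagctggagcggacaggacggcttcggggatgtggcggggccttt
ZNF431 chr19:21141790-21142039 (+ strand): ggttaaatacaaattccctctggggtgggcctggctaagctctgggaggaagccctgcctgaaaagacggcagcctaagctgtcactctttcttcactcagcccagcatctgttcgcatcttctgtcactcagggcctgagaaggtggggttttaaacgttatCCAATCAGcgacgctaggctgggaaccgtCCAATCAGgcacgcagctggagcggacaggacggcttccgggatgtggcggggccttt
ZNF254 chr19:24086937-24087186 (+ strand): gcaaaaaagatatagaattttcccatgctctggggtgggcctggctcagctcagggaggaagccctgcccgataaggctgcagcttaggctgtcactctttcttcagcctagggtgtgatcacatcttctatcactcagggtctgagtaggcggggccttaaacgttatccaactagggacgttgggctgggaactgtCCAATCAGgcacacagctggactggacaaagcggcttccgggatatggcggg

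The octamer, searched on both strands, occurred in 24 of 24 members with an entry, against 3.98% of the 27305 promoters in the table at the same length. Of the members, 13 held 2 or more copies, against 0.505% of all promoters. Copies lay at like places in some members: in ZNF714 and in ZNF431 they began 87 and 58 bases before the start, and in ZNF208 81 and 53. Elsewhere they lay nearer to it, at 52 and 23 bases in ZNF675, 29 in ZNF429 and 31 in ZNF708. At least 2 copies were found in 10 of the 15 members at least 1 log2 unit higher in S51A than in PAR and in 3 of the 9 others. ZNF257, the second highest in S51A, held 1 copy, as did ZNF254. The median number of CG dinucleotides was 8 in the former members and 8 in the latter, and the median GC content 56.0% and 54.8%. Over the 276 pairs of members, aligned identity had a median of 77.0%, from 41.6% to 92.0%. It was 78.4% between pairs of the higher members, 74.8% between pairs of the others and 76.8% across. The pair with 92.0% identity was ZNF714, whose fitted S51A level was 1.48 log2 units above PAR, and its neighbour ZNF431, at -0.07. Without the S51A lomustine B array the values were 1.72 and 0.33.

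Values are in log2 units, so a difference of 1 is a 2-fold change. The median of all values on the arrays, 2.42, served as a floor: levels under it were not told from background, and differences from such levels tend to understate a change. Over the 24 arrays, values ran from 0.71 to 12.47. The S51A array with lomustine, repetition B, stood apart from the others, with 8.72% of its probe sets over 1 log2 unit from the median of the other arrays, and the next were PAR lomustine A with 3.38% and HRI no drug A with 3.11%. EIF2S1 had a mean of 6.42 in PAR (SD 0.25, n = 5) and 6.38 in S51A (SD 0.28, n = 5), and EIF2AK1, the HRI gene, 7.73 in PAR and 7.70 in HRI; neither transcript level checks the genotype in its label. Of the blood markers, PTPRC was under the floor on 24 of 24 arrays. GATA1, LYL1 and HBE1 were at or above it on 24, KIT on 23, HBG1 on 20, SPI1 on 16, TAL1 on 14 and CD34 on 7. Of the fibroblast markers, DCN was under the floor on all 24, whereas COL1A1, VIM and THY1 were at or above it on 24 and COL1A2 on 10. Of 5 epithelial markers, EPCAM was 2.15 higher in S51A than in PAR and the other 4 differed by -0.16 to 0.36. Of 5 fibroblast markers, VIM differed by -0.89 and the other 4 by -0.12 to 0.12. Whether these differences have a part in those of the zinc finger genes was not tested.

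S51A stood apart from every other line over a large share of the cluster, and the genes did not move as 1 block. The fitted difference of S51A from PAR, over all treatments, had a median of 1.37 over the 31 members tested, against -0.02 over all 17526 genes tested. It ranged from -0.07 in ZNF431 to 5.73 in ZNF729. It was above 0 in 30 of the 32 members, at least 1 in 19, at least 2 in 11, at least 3 in 5 and at least 4 in 3, and it lay within 0.5 of 0 in 9. Without S51A lomustine B it was above 0 in 31 of the 31 members tested, at least 1 in 19 and at least 2 in 11. At least 2 log2 units were reached by 0.262% of the genes tested. In limma, 17 of the 31 members tested were called higher (adjusted p threshold 0.05) and 0 lower, where 1.29% of all genes tested were called higher. The members were listed for this contrast, and 8 of those tested passed the filter on low values through S51A arrays alone, so nothing is read from the count. ZNF99 did not pass the filter.

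ZNF729 had the largest difference of all genes tested. It read 7.78 and 7.31 in S51A without drug (A and B), 6.64 and 7.55 with lomustine and 7.53 with SA100. In the 19 arrays of the other lines it lay between 1.49 and 1.92, with a median of 1.70. All of those were under the floor, and the groups were separated by over 4 log2 units. The fitted difference was 5.73 (SE 0.15), from a PAR mean of 1.64 (SD 0.13, n = 5) to 7.36 (SD 0.43, n = 5).

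ZNF257 ranked second among all genes tested. It read 7.54 and 7.60 in S51A without drug, 7.49 and 6.50 with lomustine and 7.39 with SA100, and from 1.80 to 3.09 (median 2.51) in the other arrays. The S51A arrays lay close together except lomustine B, which was the lowest, and no other array came near them. The difference from PAR was 4.90 (SE 0.19).

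ZNF208 ranked the fifth. Its levels in S51A were 6.97 and 7.03 without drug, 6.59 and 5.86 with lomustine and 6.43 with SA100, against 1.81 to 2.50 (median 2.13) elsewhere. The S51A arrays did not overlap with the others, of which only 1 of 19 reached the floor. The difference was 4.45 (SE 0.18).

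ZNF93, the L1 repressor, ranked 9 among all genes tested. It read 5.90 and 6.72 without drug, 6.24 and 4.70 with lomustine and 7.15 with SA100 in S51A, and 1.68 to 2.65 in the other arrays (median 2.27). The 5 arrays spread over more than 2 log2 units, with lomustine B lowest, and all stood above the other lines. The difference was 3.69 (SE 0.28). Of the 5 genes with the largest increase in S51A over all genes tested 3 were members, as were 4 of the top 10 and 8 of the top 25.

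**Figure D1:**
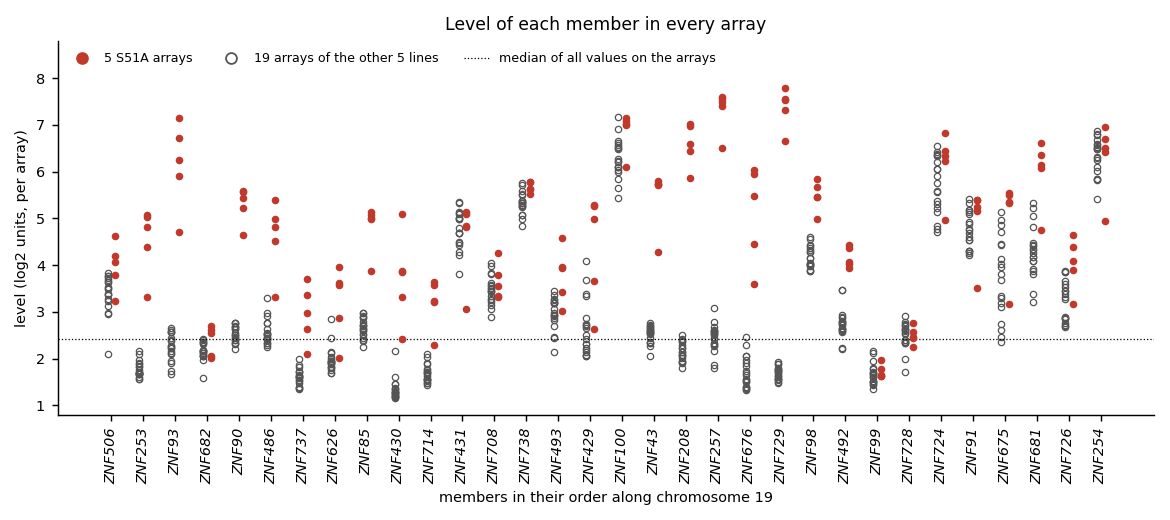
Level (log2 units) of each of the 32 members on every array, members ordered along chromosome 19; filled points are the 5 S51A arrays, open points the 19 arrays of the other lines, and the dotted line the median of all values, 2.42. In ZNF729, ZNF257 and ZNF208 all S51A points lie far above all others, whereas in ZNF431 and ZNF254 both kinds of array share 1 range.

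In 15 of the 32 members every S51A array was above all 19 arrays of the other lines, which held for 0.565% of the genes tested; this too is a description of the contrast that chose them. Beside the genes above, ZNF676 was 3.38 higher (SE 0.32), ZNF43 2.84 (SE 0.20) and ZNF253 2.83 (SE 0.23). ZNF43 read 5.79 and 5.73 in S51A without drug, 5.73 and 4.27 with lomustine and 5.71 with SA100, and at most 2.76 in other lines. ZNF90 was 2.65 higher, ZNF430 2.45, ZNF85 2.34 and ZNF486 2.03. ZNF98, which was above the floor in every line, had a PAR mean of 3.99 (SD 0.05, n = 5) and an S51A mean of 5.48 (SD 0.32, n = 5). It and ZNF492, 1.37 higher, show the difference at a moderate size with the 5 arrays still clear of the rest.

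Judged by the difference over its SE, the members just inside the call were ZNF681 (1.60, SE 0.35) and ZNF626 (1.31, SE 0.25). Just outside it were ZNF493 (0.76, SE 0.24), ZNF100 (0.65, SE 0.21), ZNF506 (0.79, SE 0.25) and ZNF429 (1.13, SE 0.41). ZNF675, at 1.06, had the largest SE of the members, 0.52. On leaving out 1 array ZNF429 ran from 0.91 (without S51A no drug B) to 1.61 (without S51A lomustine B), and ZNF675 from 0.66 (without PAR SA100) to 1.45 (without S51A lomustine B). Without the S51A lomustine B array the count called was 21, with ZNF100, ZNF429, ZNF493 and ZNF506 added.

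At the other end, ZNF431 read 5.14 and 5.09 in S51A without drug, 4.82 and 3.06 with lomustine and 4.83 with SA100. The other lines spanned 3.80 to 5.36 with a median of 4.80, so that 4 S51A arrays fell inside that range and lomustine B below it. ZNF254 read 6.70 and 6.42, 6.51 and 4.94, and 6.96 in the same order, beside 5.42 to 6.87 in the other lines. ZNF91, the repressor of SVA elements, read 5.39, 5.40, 5.24, 3.51 and 5.15 in S51A, inside the range of 4.22 to 5.42 elsewhere except for lomustine B. These 3 genes were well above the floor in every line. Their fitted differences were -0.07, -0.05 and 0.11 with all arrays and 0.33, 0.26 and 0.44 without lomustine B, which thus set the sign of the first pair.

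Position along the chromosome did not sort the members into 1 unbroken run. In chromosomal order the longest stretch in which every S51A array exceeded all others held 7 members: ZNF43, ZNF208, ZNF257, ZNF676, ZNF729, ZNF98 and ZNF492. A second stretch of 7, from ZNF90 to ZNF714, had differences of at least 1 throughout. Between these stretches lay ZNF431, ZNF708, ZNF738, ZNF493, ZNF429 and ZNF100, of which only ZNF429 reached 1. From ZNF99 to the end there were 8 members, and ZNF675 and ZNF681 alone among them reached 1. ZNF682, lying between ZNF93 (3.69) and ZNF90 (2.65), differed by 0.13 (S51A 2.01 to 2.69, others 1.58 to 2.41).

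Genes between the members that are not zinc finger genes of the list showed nothing of this size. The 8 such genes on the array, among them the pseudogene ZNF826P and LINC00664, differed from PAR by -0.06 to 0.21 in S51A, and 0 of the 4 tested were called, with 0 at an unadjusted p under 0.05 in limma. The rest did not pass the filter on low values. Several were near the floor in all arrays, as many members were in PAR. The highest level of any of the 8 on any array was 3.83, in LOC400682 in S51A. With levels this low in every line, these genes say little about the region. The genes just before the cluster, ZNF101 and ZNF14, differed by 0.17 and 0.32.

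The level in PAR went with the size of the difference. Among the 18 members with a PAR mean under 3, 15 were at least 1 higher in S51A, with a median of 2.39. Among the 14 at 3 or more, 4 were, with a median of 0.60. Spearman's rho between PAR level and difference was -0.53 over 32 genes. Both quantities contain the PAR mean and the genes share arrays, so it carries no test. ZNF253 and ZNF729 were under the floor in all 19 other arrays and above it in all 5 S51A arrays, while 10 members were above the floor everywhere.

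ZNF253 was the only member with a second probe set. The higher one read 5.03 and 4.82 without drug, 5.08 and 3.33 with lomustine and 4.39 with SA100 in S51A, against 1.57 to 2.16 in the other lines. The second read 1.76 to 1.95 in S51A and 1.40 to 2.02 elsewhere, so it lay under the floor and did not separate S51A. Probe sequences were not used here, and how far probe sets of such similar genes detect each other's transcripts was not tested.

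**Figure D2:**
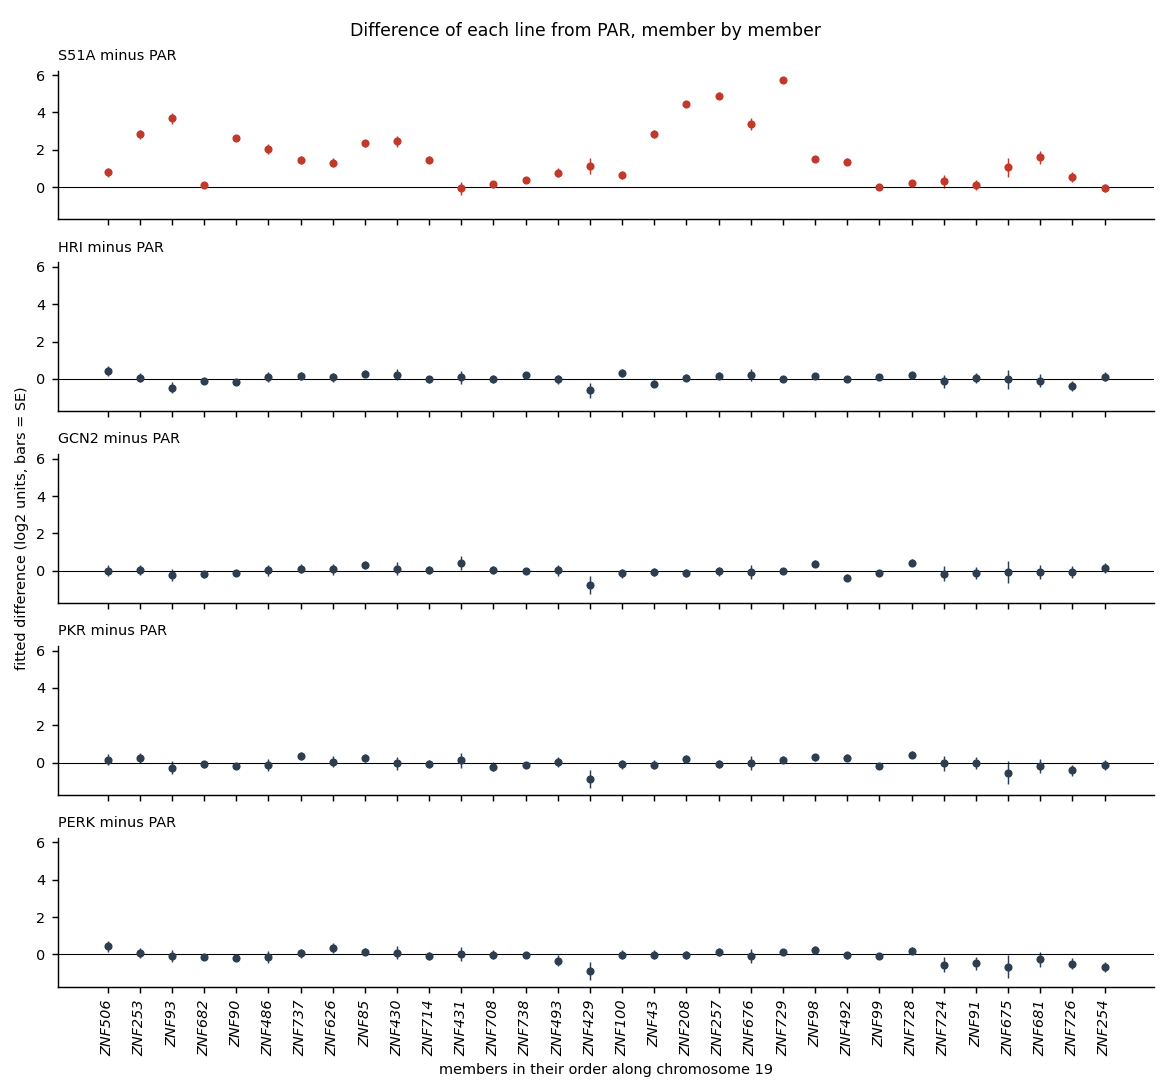
Fitted difference from PAR (log2 units, bars are SE) of each member in S51A, HRI, GCN2, PKR and PERK, in chromosomal order. S51A reaches 5.73 with 2 stretches of high values, and with all arrays in the fit no member in the other 4 lines passes 1 in either direction.

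The 4 lines named for kinases lay close to PAR throughout the cluster. However, 9 of the 32 members reached the floor on at most 1 of the 19 arrays outside S51A. For these, a level lower than in PAR could not have been seen. They include the 8 tested members that passed the filter through S51A arrays alone. Median differences over the members tested were 0.07 in HRI, -0.02 in GCN2, -0.05 in PKR and -0.02 in PERK. Each of these medians changed sign when some array was left out. Of the 128 pairs of member and line, 0 passed 1 log2 unit with all arrays. On leaving out 1 array 3 did: ZNF429 in PERK (to -1.13, without PERK SA100, PAR SA100 or PAR no drug A), ZNF429 in PKR (to -1.08, without PAR SA100 or PAR no drug A) and ZNF675 in PERK (-1.09, without PAR SA100). In limma 0 of the 31 members tested were called in any of these lines, where 0.143% of all genes tested were called in HRI, 0.0685% in GCN2, 0.0% in PKR and 0.171% in PERK. At an unadjusted p under 0.05 there were 0, 2, 1 and 1 members, beside 7.62%, 4.07%, 3.04% and 5.62% of all genes tested. Across arrays, the median level of all members was 2.49 to 2.78 in the lines other than S51A and 3.54 to 5.20 in S51A.

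ZNF429 had the largest difference from PAR in all 4 lines, always lower: -0.61 in HRI, -0.75 in GCN2, -0.87 in PKR and -0.89 in PERK. Without PAR lomustine B these became -0.39 in HRI, -0.54 in GCN2 and -0.65 in PKR, and in PERK -0.66 without PERK no drug. All are set against the same PAR arrays, which read 2.72 and 3.38 without drug, 3.67 and 4.09 with lomustine and 2.31 with SA100. It read 2.66, 2.18, 2.06, 3.34 and 2.88 in HRI (no drug A and B, lomustine A and B, SA100), 2.42, 2.74 and 2.14 in GCN2, 2.70, 2.05 and 2.22 in PKR, and 2.08, 2.32 and 2.50 in PERK. The ranges overlapped with PAR in every line, and PAR spread over more than any of them.

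ZNF675 differed from PAR by -0.54 in PKR and -0.65 in PERK (means 3.46, 3.35 and 3.92), and had the widest range of any member over the 19 arrays outside S51A. The first value ran from -0.98 (without PAR SA100) to -0.0012 (without PKR no drug), the second from -1.09 (without PAR SA100) to -0.25 (without PERK no drug). In PAR it read 4.72, 4.46, 2.45, 4.86 and 3.11 in the order above, and in HRI 5.14, 3.19, 2.36, 3.81 and 4.97. Arrays of 1 group thus differed by over 2 log2 units in PAR with lomustine. PKR read 2.62, 3.35 and 4.43 and PERK 2.75, 3.30 and 4.02, inside the range of PAR.

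The other members that stood furthest from PAR in a line differed by less than 0.7 log2 units. ZNF506 read 3.49, 3.51, 3.67, 3.64 and 3.76 in HRI and 2.96, 3.73, 3.38, 3.76 and 2.10 in PAR. Its difference of 0.43 in HRI was 0.13 without the PAR SA100 array, the lowest of the 19. ZNF93 read 1.72, 1.95, 2.12, 1.91 and 2.23 in HRI and 2.65, 2.17, 2.28, 2.56 and 2.62 in PAR, a difference of -0.47 around or under the floor.

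ZNF728 lay near the floor in all lines. It read 2.72, 2.79 and 2.61 in GCN2, 2.91, 2.73 and 2.40 in PKR and 2.36, 2.35, 1.71, 2.34 and 2.54 in PAR, and the differences were 0.44 in GCN2 and 0.42 in PKR. ZNF431 read 5.14, 5.00 and 5.08 in GCN2 and 4.68, 4.98, 3.80, 5.36 and 4.44 in PAR. Its difference of 0.41 in GCN2 was 0.21 without PAR lomustine A and 0.62 without PAR lomustine B. ZNF254 differed by -0.66 in PERK, with 5.85, 5.42 and 6.02 there and 6.59, 6.28, 5.81, 6.51 and 6.58 in PAR, so that the PERK arrays overlapped with PAR lomustine A alone.

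The S51A difference was present under each treatment. In untreated cells 18 members were at least 1 higher in S51A than in PAR (median of members 1.43), with lomustine 17 (median 1.10) and with SA100 23 (median 1.52), and 17 passed 1 in all 3. The SA100 figures set 1 S51A array against 1 PAR array, and whether they exceed the others was not tested. Without the S51A lomustine B array the lomustine count was 21 and the median 1.68. That array was below lomustine A in 30 of 32 members, with a median of -1.26. Over all genes tested 63.4% were lower in it, with a median of -0.24. Over the 7155 genes tested whose mean level over all arrays lay between the quartiles of the members' mean levels, the median was 0.02. These genes were not matched on levels in S51A, where the median member read 5.15 on lomustine A. ZNF208, for example, had a mean of 3.07 over all arrays and 6.58 in S51A. Genes near the floor have little room to fall, so the 0.02 cannot show whether the fall was particular to the cluster. Among the members ZNF729, 7.55 in B against 6.64 in A, was an exception. ZNF676 was at 5.47 in A and 3.60 in B, and ZNF429 at 4.99 and 2.62. Genes outside the cluster were lower in B as well. EIF2S1 read 6.44 in A and 5.90 in B, EIF2AK1 7.76 and 6.92 and EIF2AK2 7.44 and 6.35. EIF2AK3 read 4.28 and 3.34, and EIF2AK4 6.48 and 5.63. In these bulk samples a shift of the array, fewer cells with a transcript and less of it per cell cannot be told apart.

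A drop in 1 of a pair of duplicates was also seen outside S51A among the 14 members with a PAR mean of 3 or more. In PAR with lomustine, repetition A was lower than B in 13 of the 14, with a median of -0.63. In HRI, A was higher in 11 of 14 without drug (median 0.45) and lower in 12 of 14 with lomustine (median -0.43). In PAR without drug the split was 6 and 8, with a median of -0.11. ZNF681, for example, read 3.20 and 5.22 in PAR with lomustine. PAR lomustine A and HRI no drug A also stood furthest from the other arrays after S51A lomustine B (3.38% and 3.11% of probe sets). No share over all genes is given here for these pairs. A shift of the whole array thus cannot be told from one of the cluster.

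The line-by-treatment interaction asked whether any line difference depended on the treatment. In limma, with 10 interaction terms and 6 residual degrees of freedom, 0 of 31 members passed, as did 0.0% of the 17526 genes. At an unadjusted p under 0.05 there were 52 of the 17526 genes and 0 members. That is far below the share of 0.05 that a calibrated test gives without any interaction, so the test was conservative here. Its 0 members cannot show that line differences were independent of treatment. The smallest member p was that of ZNF208 (unadjusted p = 0.197, adjusted p = 1). With groups of 1 array, only large dependences could have been detected. For the 8 members that passed the filter through S51A arrays alone, levels in the other lines were mostly under the floor, so falls there could not be seen.

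**Figure D3:**
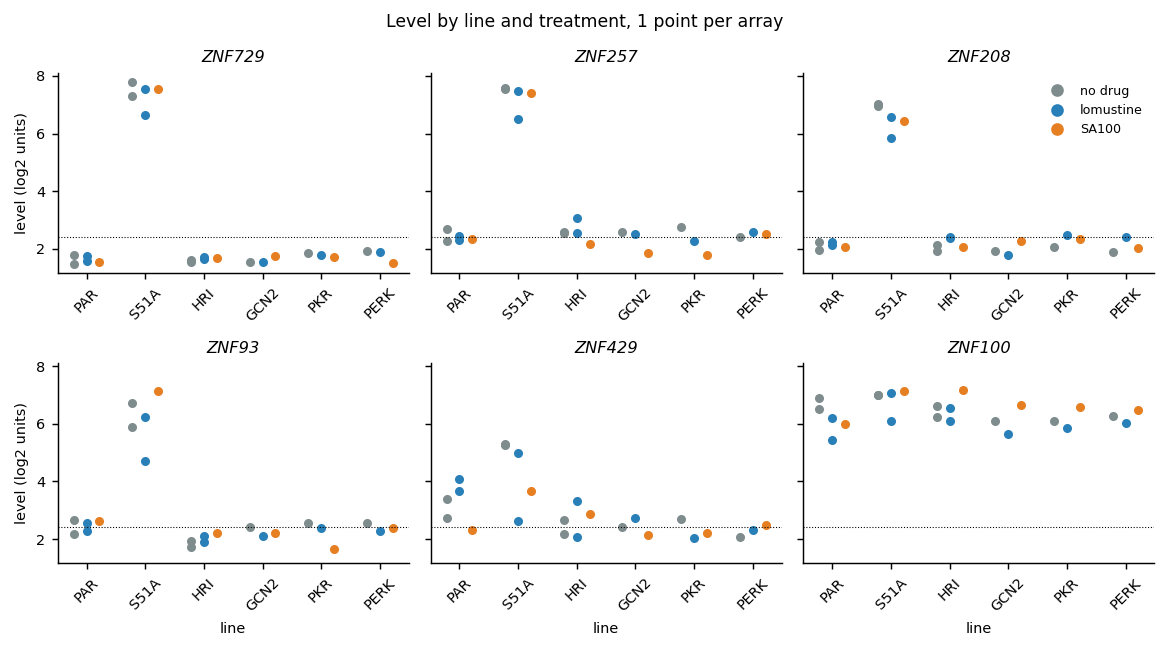
Level (log2 units) of 6 members by line, 1 point per array, coloured by treatment; the dotted line is the median of all values. ZNF729, ZNF257, ZNF208 and ZNF93 are high in all S51A treatments, ZNF429 overlaps between lines, and ZNF100 is expressed in all lines.

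In limma, 0 or 1 member was called in each treatment comparison. The 8 tested members that passed the filter through S51A arrays alone lay mostly under the floor in the other lines. A treatment fall there could not have been seen. In the additive fit over 24 arrays, 0 of the 31 members tested passed for lomustine against no drug in limma, where 1.02% of all genes tested did, and 3 had an unadjusted p under 0.05, beside 14.1% of all genes. For SA100 against no drug 0 passed in limma where 3.04% of genes did, and 1 had an unadjusted p under 0.05, beside 16.5% of all genes. The median member difference was -0.14 for lomustine and -0.08 for SA100, against -0.04 and 0.04 over all genes tested. Differences spanned -0.57 to 0.09 for lomustine and -0.47 to 0.36 for SA100.

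For SA100 against lomustine, 1 member of 31 passed, where 5.94% of all genes tested did. This was ZNF100, the member with the highest mean on the arrays. It lay at 5.44 to 7.07 (median 6.09) over the 9 lomustine arrays, at 5.98 to 7.17 (median 6.62) over the 6 SA100 arrays and at 6.09 to 7.01 (median 6.51) over the 9 arrays without drug. With SA100 it read 5.98 in PAR, 7.15 in S51A, 7.17 in HRI, 6.66 in GCN2, 6.58 in PKR and 6.49 in PERK. With lomustine it read 5.44 and 6.21 in PAR, 7.07 and 6.09 in S51A, 6.10 and 6.53 in HRI, 5.65 in GCN2, 5.84 in PKR and 6.03 in PERK. The groups overlapped across lines, but within each of the 6 lines the SA100 level was above the mean with lomustine. The fitted difference was 0.63 (SE 0.18, limma adjusted p = 0.0353). It missed the threshold, with adjusted p between 0.0556 and 0.11 and a difference of 0.55 to 0.66, when 1 of 10 arrays was left out: lomustine A of PAR or HRI, lomustine of GCN2, PKR or PERK, or SA100 of S51A, HRI, GCN2, PKR or PERK. ZNF254 had a difference of like size, 0.64 (SE 0.20), with SA100 above lomustine in 6 of 6 lines, and missed the threshold (limma adjusted p = 0.0556). It passed, as did ZNF100, when lomustine B of PAR, S51A or HRI or lomustine A of S51A was left out. Without S51A lomustine B, ZNF676 passed as well, with a difference of -0.47 in the fit to all arrays.

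The proteins that KRAB zinc fingers work through were compared as a list of 28 genes (TRIM28, SETDB1, HP1 and HUSH components, DNA methyltransferases and the like). Their median difference between S51A and PAR was -0.01, with 1 called higher and 1 lower. ATF7IP, the partner that stabilises SETDB1, was 4.82 in S51A (SD 0.39, n = 5) and 5.65 in PAR (SD 0.25, n = 5). ZNF274, a KRAB zinc finger protein known for binding the 3′ ends of zinc finger genes with SETDB1, was 4.46 in S51A and 3.63 in PAR. SETDB1 itself differed by -0.23 (SE 0.19). Whether any of these has a part in the levels of the cluster was not tested. With SA100, ATRX fell by 0.99 (limma adjusted p = 0.0222) and TET3 fell by 0.66 (limma adjusted p = 0.0227) against no drug, while 0 members passed there.

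Zinc finger genes elsewhere were set beside the cluster by their counts. They were taken by symbols that start with ZNF or ZFP, so entries such as the antisense ZNF225-AS1 and ZFP36 are among them. ZNF826P and ZNF276-AS1, which lie between the members, are also in the chromosome 19 list, and neither was tested. Of the 192 tested among 213 other zinc finger genes of chromosome 19, 26 were called higher in S51A and 1 lower. Their median difference was 0.18. Over all genes tested 1.29% were called higher. ZNF841 was 3.29 higher, ZNF556 2.75, ZNF702P 2.60 and ZNF793 2.55. Of the 265 tested among 289 on other chromosomes, 2 were called higher and 1 lower, with a median of -0.01. ZNF141, 3.34 higher, was the largest of these. The cluster thus had the highest median of the 3 groups, 1.37, in the contrast its members were listed for, and high values also occurred among zinc finger genes outside it.

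**Figure D4:**
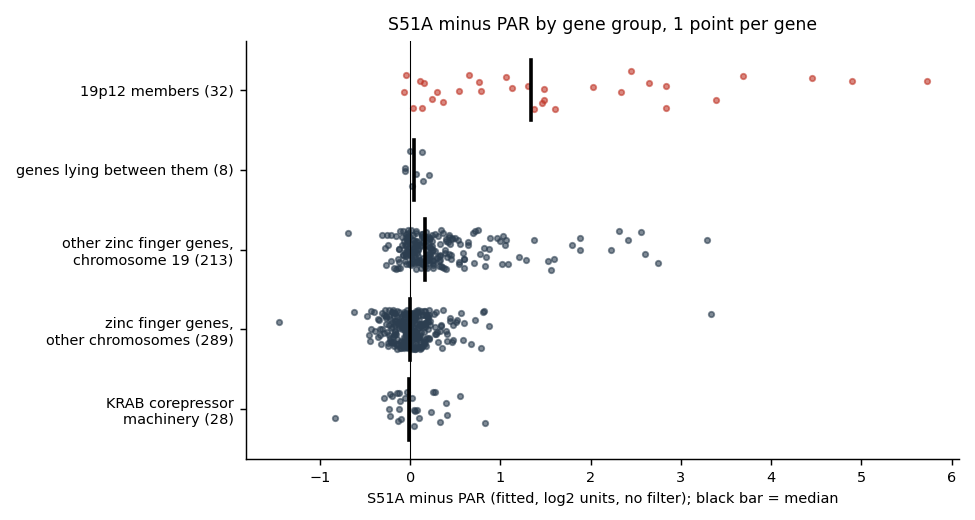
S51A minus PAR (fitted, log2 units, without a filter on low values) for each gene of 5 groups, with a black bar at the median; points are spread vertically for legibility. The 32 members reach 5.73, the 8 genes between them stay at or under 0.21, and some of the 213 other zinc finger genes of chromosome 19 reach values above 2.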

How the data were processed

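The authors deposited 1 table of log2 values for 53617 probe sets on 24 arrays. Per the submitters' processing notes it was made with RMA (background correction, quantile normalization and a summary over probes) and the R package affy. Versions, filters and the annotation build are not given in the sources used here. RMA makes the arrays' distributions alike, so a shift of all genes together would not show; the medians per array lay between 2.34 and 2.58. Precision is limited by how few arrays each group holds.

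Probe sets were joined to genes through the platform annotation: 25713 were annotated, 23871 of them with 1 distinct symbol, 1842 with several (left out), and 27904 had none. Symbols were updated through gene IDs for 90. Where a gene had several probe sets (632 genes), that of highest mean was taken. Genes entered the tests if 2 or more arrays were at or above the overall median, 17526 in all.

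Models were fitted in limma 3.58.1 under R 4.3.3 (two-sided tests, Benjamini-Hochberg over all genes tested, threshold 0.05). Terms for line and treatment over all 24 arrays (16 residual degrees of freedom) gave all differences; 18 group means gave the interaction. The fits were run on simulated data with independent normal noise for each gene and no array that stood apart. They were thus not checked under arrays such as S51A lomustine B. Letters A and B were not used to pair arrays, since A minus B without drug and A minus B with lomustine had an r over genes of 0.33 (PAR), -0.39 (S51A) and -0.56 (HRI).

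The members and gene lists were chosen with earlier results of these data known. Values on each array of a line are given for the 3 members with the largest difference from PAR in that line. ZNF100, called between SA100 and lomustine and the member with the highest mean, is given on each array of those treatments. No member was called in the interaction, and EIF2S1 is given as means. Groups over 5 arrays are also given by lowest, median and highest. Other members with values were picked after their values were seen, as was the octamer. Identity is that of a global alignment of the 250 bases. Alternatives were no filter and a stricter one, the mean of probe sets, quantile normalization again, a robust trended prior, centred arrays, the compared arrays alone, a replicate block and leaving out each array.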

Additional observations from a re-analysis of the deposited data

Results flagged for a closer look

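In ZNF208 both lomustine arrays of HRI lay above both untreated ones, by 0.36 log2 units in the means, and in S51A both lay below, by a change of -0.77. In HRI the gene was under the floor on all arrays, so that shift lies in the range of background. In ZNF429 both lomustine arrays of PAR lay above the untreated ones, a change of 0.83, and both of S51A below, a change of -1.47. Both S51A changes lean on the lomustine B array, which stood apart from the others. In S51A, ZNF429 read 5.26 and 5.29 without drug, 4.99 with lomustine A and 2.62 with lomustine B. ZNF208 read 6.97, 7.03, 6.59 and 5.86 in the same order. These opposite shifts in duplicated lines were not tested pair by pair. The interaction test over all lines gave neither gene an adjusted p under 1 (limma unadjusted p = 0.197 for ZNF208 and 0.432 for ZNF429).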

How the results depend on the processing

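Leaving out each array in turn gave 17 to 21 members called higher in S51A, the most without S51A lomustine B, and a median difference of 1.27 to 1.62. The stricter filter, which needs 12 arrays at the floor and by construction removes genes high in S51A alone, gave 8. With only the arrays compared, 15 of the 17 remained (ZNF626 and ZNF681 were lost). A replicate block on the letters gave 17, the same 17 genes. Crossing the letters in S51A and HRI, chosen after seeing the data, also gave 17. The block changed no other count.

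For SA100 against lomustine, quantile normalization again gave 2 members, centred arrays 0, only the arrays compared 0, and leaving out each array 0 to 3. The ZNF100 difference was 0.63 with centred arrays and 0.62 with only the arrays compared, neither passing (adjusted p 0.0855 and 0.108), and adjusted p ran from 0.00964 to 0.11 over its alternatives in limma. The medians of the other lines changed sign on leaving out arrays, between -0.0045 and 0.155 in HRI, -0.0953 and 0.0664 in GCN2, -0.136 and 0.0435 in PKR and -0.0977 and 0.0309 in PERK; the cause was not tested. Under all settings run, 0 members were called for lomustine or SA100 against no drug, in the interaction, or in HRI, GCN2, PKR and PERK. No called value changed sign.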
